A study of Mus musculus with 24 samples.

Results

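The comparison described here set macrophages given interleukin-4 (IL-4) together with GW9662 against macrophages given GW9662 alone, so that this blocker of the nuclear receptor PPARγ was present on both sides. It covers every gene with a mean of at least 1 CPM (reads scaled to library size) in either group, 11130 of the 23420 genes in the deposited table, and no measured response was used to choose them. All cells were bone marrow-derived macrophages of male C57BL/6 mice aged 3 months, differentiated for 6 days with the growth factor M-CSF. One group of 2 samples then had IL-4 plus GW9662 for 24 h, and the other, also of 2 samples, had GW9662 alone for 24 h. From the same experiment, 2 samples with IL-4 and no GW9662 and 2 samples with a DMSO and ethanol vehicle, also at 24 h, were used to set the response beside the one without the blocker. A further experiment of the series, which brings it to 24 samples in 12 groups, held wild-type cells read after 3 h of a first exposure to IL-4 and cells read without it. IL-4 was used at 20 ng per µl according to the labels, which state no concentration of GW9662. Whether a group's 2 samples are separate mice or cultures is not stated. The p-values therefore measure at most the spread between these samples, which may be technical. For some of the most highly expressed genes they do not measure even that, as described with the processing below.

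IL-4 binds a surface receptor whose Janus kinases phosphorylate STAT6, and STAT6 then enters the nucleus and switches on the genes of alternative activation, such as Arg1 and Retnla. In mouse macrophages IL-4 is also known to raise Pparg, whose product pairs with RXR on DNA and activates genes of lipid uptake and lipid breakdown when a ligand fills its pocket. GW9662 binds covalently inside that pocket and keeps ligands out, so an IL-4 response measured in its presence is one in which ligand-driven PPARγ activity is meant to be blocked.

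The deposited columns are means of the 2 samples of a group. Because each value is built from whole reads of 2 libraries, it could be separated into a deeper and a shallower library for nearly all values, all but the highest, although the replicate numbers of these libraries are not known. In the genes so separated, the IL-4 plus GW9662 libraries held 14778088 and 13890811 reads, and the GW9662 libraries held 14108271 and 12616513 reads. A level of 3 reads corresponds to 0.133 and 0.145 CPM in the IL-4 plus GW9662 libraries, and to 0.136 and 0.154 CPM in the GW9662 libraries. The 8 libraries of the experiment were of 2 kinds, told apart by genes that share sequence with other genes, which read higher in 1 kind. Of the libraries compared here, the shallower IL-4 plus GW9662 library was of the high kind, and the deeper one and both GW9662 libraries were of the low kind. This imbalance touches 752 of the 11130 genes, called sensitive to counting below. Beyond 2-fold, 311 of these 752 were higher with IL-4 plus GW9662 and 16 were lower, but without the shallower IL-4 plus GW9662 library 22 were higher and 31 were lower. Of the 752, 462 were marked because high-kind libraries, this one included, read more than 1.5-fold above low-kind ones. Much of this shift was therefore fixed by how the genes were chosen. The genes named as the strongest come from the other 10378 genes. A sensitive gene named below is marked as such or given with its value without the shallower IL-4 plus GW9662 library. Genes with an unseparated value in a group holding both kinds could be judged by shared sequence alone. Retnla, Mgl2, Itgax, Igfbp4, Lpl, Psap, Apoe and Lgals3 are among them, so the library rule did not clear them. Of 10 macrophage markers 9 were measured: Csf1r, Emr1, Cd68, Itgam (sensitive to counting), Fcgr1, Cd14, Mertk, Lyz2 and Tyrobp were all well detected in both groups, the lowest means being those of Mertk, 44.8 CPM with IL-4 plus GW9662 and 96.9 CPM with GW9662 alone.

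With GW9662 present, IL-4 changed the macrophages on a large scale, and upward changes reached further than downward ones. On means with 1 CPM added, 975 of the 11130 genes (8.76%) were more than 2-fold higher with IL-4 plus GW9662 than with GW9662 alone, and 691 (6.21%) were more than 2-fold lower. Among the 10378 genes not sensitive to counting, these numbers were 664 (6.4%) higher and 675 (6.5%) lower. More than 4-fold apart were 183 genes upward and 160 downward, more than 16-fold 36 upward and 9 downward, and more than 32-fold 21 upward and 2 downward. By limma on the separated libraries, with a Benjamini-Hochberg adjusted p under 0.05, 2924 genes (26.3%) rose and 2792 (25.1%) fell, together 51.4%. Both called and beyond 2-fold were 714 genes (6.42%) upward and 690 (6.2%) downward, and of those not sensitive to counting 661 (6.37%) and 675 (6.5%). The shares of the gene groups below are to be read against 26.3% and 25.1%. These shares depend on the variance weight of each group, and without group weights limma called 1654 rises and 1648 falls. The values of the 2 groups' libraries did not overlap for 8553 of 10990 genes (77.8%). Among genes not sensitive to counting and also measured without GW9662, the median standard error (SE) of the log2 difference was 0.0992.

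Of the genes not sensitive to counting, 28 stood under 1 CPM with GW9662 alone and at 10 CPM or more with IL-4 plus GW9662, and 10 made the opposite crossing. The means without GW9662 made the same crossing for 28 of the 28 and 10 of the 10. Besides genes described below, the upward crossings included Lrrc32, which displays latent TGF-β on the cell surface, with 64.1 and 70.6 CPM in the IL-4 plus GW9662 libraries and a mean of 0.491 CPM with GW9662 alone. Aldh1a2, an enzyme that makes retinoic acid, had 11 and 16 CPM with IL-4 plus GW9662 and a mean of 0.116 CPM with GW9662 alone. Il31ra, a subunit of the interleukin-31 receptor, had 23.5 and 19.6 CPM with IL-4 plus GW9662 and no read in either GW9662 library. The downward crossings included Cxcl10 and Il1b. Lrrc32, Aldh1a2 and Il31ra were chosen after their values were seen.

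Retnla, which encodes the secreted protein RELMα, showed the largest log2 ratio of all 11130 genes. Its mean was 22256 CPM with IL-4 plus GW9662, and it had 10.4 and 14.5 CPM in the GW9662 libraries, a log2 ratio of 10.69 (SE 0.226, adjusted p = 1.5e-06 by limma). The first of these values was too high to separate into libraries, so the spread between the IL-4 plus GW9662 samples did not enter its test. Retnla took 2.15% of all scaled reads with IL-4 plus GW9662 and 0.0013% with GW9662 alone. Arg1, the arginase that splits arginine into ornithine and urea, had 813 and 807 CPM in the IL-4 plus GW9662 libraries and 0.181 and 0.462 CPM in the GW9662 libraries (log2 ratio 9.26, SE 0.119, adjusted p = 1.1e-08). Ear11, an eosinophil-associated ribonuclease, had 619 and 699 CPM with IL-4 plus GW9662, against 0.408 and 0.205 CPM with GW9662 alone (log2 ratio 8.98, SE 0.114). The libraries of Arg1 and Ear11 did not overlap between the groups, as in 77.8% of 10990 genes.

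Further genes among the 12 strongest rises came from several functions. Fn1, which encodes the matrix protein fibronectin, had 595 and 551 CPM in the IL-4 plus GW9662 libraries and 4.44 and 1.95 CPM in the GW9662 libraries (log2 ratio 7.10, SE 0.306). Flt1, a receptor for VEGF, had 164 and 158 CPM with IL-4 plus GW9662 and 0.363 and 0.462 CPM with GW9662 alone (log2 ratio 6.84, SE 0.0832). Pdcd1lg2, the second ligand of the T cell checkpoint receptor PD-1, had 158 and 145 CPM with IL-4 plus GW9662 and 0.499 and 0.411 CPM with GW9662 alone (log2 ratio 6.71, SE 0.0961). In Fn1, Flt1 and Pdcd1lg2 the libraries of a group lay close together compared with the gap between groups. Mgl2, a galactose-binding lectin, averaged 1013 CPM with IL-4 plus GW9662 and had 14 and 9.70 CPM in the GW9662 libraries (log2 ratio 6.30, SE 0.510). Itgax, the integrin chain CD11c, averaged 1765 CPM with IL-4 plus GW9662 and had 25.8 and 26.4 CPM in the GW9662 libraries (log2 ratio 6.02, SE 0.0674). Tmem26, a membrane protein, and Scn3a, a sodium channel subunit, had log2 ratios of 7.51 and 6.08. Ocstamp and Slc7a2, the other two of the 12, are described with their groups below.

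**Figure D1:**
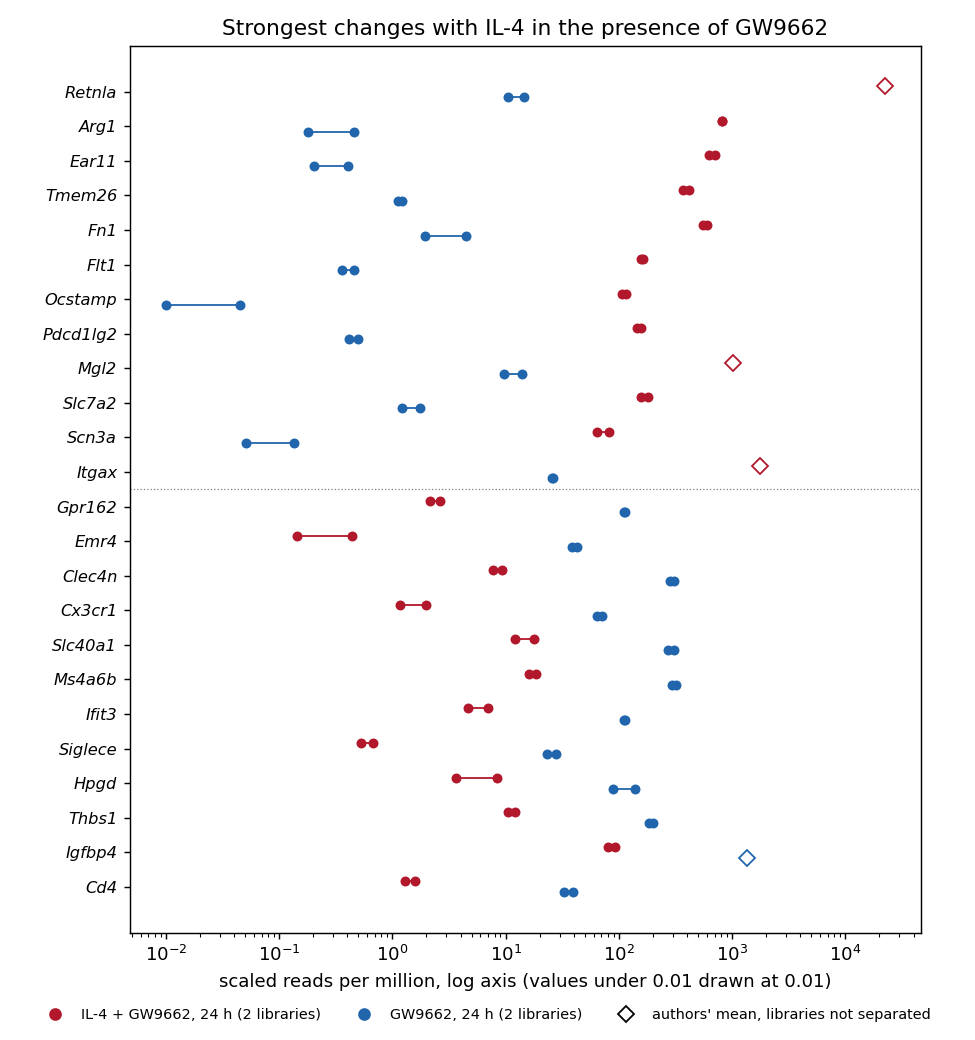
Levels of the 12 genes with the highest (upper block) and the 12 with the lowest (lower block) log2 ratio, in CPM on a log axis, with red for IL-4 plus GW9662 and blue for GW9662 alone. Each dot is a library, a line joins the 2 libraries of a group, and an open diamond is an authors' mean that could not be separated. In the 20 genes with both groups separated the libraries of the groups do not overlap, as in 77.8% of 10990 genes. The genes shown were chosen for large ratios in these same libraries. For Retnla, Mgl2, Itgax and Igfbp4 1 group is an unseparated mean, which reaches 22256 for Retnla.

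The upstream sequences of strongly raised genes are shown because STAT6 prefers a spaced palindrome, TTC and GAA with 4 bases between them, which reads the same on both strands. It was searched in the RefSeq promoters of build GRCm38.p6, which run from 250 bases before to 50 bases after each annotated start. Of the 12 strongest rises 7 had a promoter entry, and of the 12 strongest falls also 7. The palindrome was present in 4 of the 7 raised genes, Retnla, Tmem26, Pdcd1lg2 and Itgax, and in 1 of the 7 lowered genes, Ms4a6b. Their 250 bases before the start follow, 5′ to 3′ on the plus strand, with the palindrome in capitals.
Retnla, chr16:48842359-48842608: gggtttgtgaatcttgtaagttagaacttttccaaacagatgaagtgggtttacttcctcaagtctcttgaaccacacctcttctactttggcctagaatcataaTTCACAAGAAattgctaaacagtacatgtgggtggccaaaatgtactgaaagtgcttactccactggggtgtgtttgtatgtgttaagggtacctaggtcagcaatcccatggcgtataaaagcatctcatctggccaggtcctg
Tmem26, chr10:68723496-68723745: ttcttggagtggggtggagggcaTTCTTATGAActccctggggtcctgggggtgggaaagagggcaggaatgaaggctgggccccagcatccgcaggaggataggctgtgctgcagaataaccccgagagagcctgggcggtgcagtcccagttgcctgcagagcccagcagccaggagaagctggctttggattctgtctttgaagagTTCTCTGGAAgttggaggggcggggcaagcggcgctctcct
Pdcd1lg2, chr19:29410669-29410918: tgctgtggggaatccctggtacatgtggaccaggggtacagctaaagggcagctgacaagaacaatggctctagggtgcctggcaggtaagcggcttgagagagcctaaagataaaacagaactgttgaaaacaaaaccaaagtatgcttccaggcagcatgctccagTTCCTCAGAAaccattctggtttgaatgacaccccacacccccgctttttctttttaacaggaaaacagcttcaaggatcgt
Itgax, chr7:128129300-128129549: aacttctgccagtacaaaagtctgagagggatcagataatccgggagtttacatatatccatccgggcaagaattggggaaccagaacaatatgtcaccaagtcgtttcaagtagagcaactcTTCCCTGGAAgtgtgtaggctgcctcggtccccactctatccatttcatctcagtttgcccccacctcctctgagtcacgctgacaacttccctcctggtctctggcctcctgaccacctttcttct
The palindrome began 145 bases before the start in Retnla, 227 and 41 bases before it in Tmem26, 82 bases before it in Pdcd1lg2 and 127 bases before it in Itgax. In Ms4a6b, one of the strongest falls, it lay 8 bases after the start. Across larger sets the palindrome was present in 9.27% of 507 genes that rose more than 2-fold, in 6.92% of 520 genes that fell more than 2-fold and in 6.71% of 8936 genes tested. It was present in 8.01% of all 27025 genes with an entry. The same palindrome with 3 bases in between, bound by other STAT proteins, was found in none of the 14 promoters and in 8.23% of the 8936 genes. A perfect direct repeat for PPARγ and RXR, with AGGTCA given 2 times and 1 base between on either strand, was found in 1 of the 507 genes, Apol7c, in none of the 520, and in 4 of the 8936. A match describes letters in this window and shows neither a bound site nor a cause.

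The receptor end of the pathway moved in both directions. Of 21 tested genes of IL-4 receptor signalling and feedback, 7 rose and 9 fell, and the median log2 ratio was -0.07 beside 0.02 over all genes. The rises were led by the SOCS-box inhibitors that STAT proteins switch on to damp cytokine receptors. Cish had 161 and 154 CPM in the IL-4 plus GW9662 libraries and 1.95 and 2.46 CPM in the GW9662 libraries (log2 ratio 5.63, SE 0.111). Socs1 had 131 and 123 CPM with IL-4 plus GW9662 and 2.99 and 2.87 CPM with GW9662 alone (log2 ratio 5.03, SE 0.124), and Socs2 averaged 15.4 CPM and 0.322 CPM (log2 ratio 3.63). Their relative Socs3, a feedback inhibitor of the IL-6 pathway, fell to 2.71 and 1.89 CPM with IL-4 plus GW9662, against 23.5 and 25.3 CPM with GW9662 alone (log2 ratio -2.95, SE 0.154). The receptor chains that pair with each other also fell: Il4ra averaged 180 CPM with IL-4 plus GW9662 and 497 CPM with GW9662 alone (log2 ratio -1.46), and Il13ra1 had a log2 ratio of -2.77. The remaining receptor chain Il2rg (0.07), Stat6 itself (-0.05) and the kinase Jak1 (-0.07) did not pass the test, while Jak2 rose (log2 ratio 1.17).

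Among 37 tested IL-4 and STAT6 markers 32 rose and 2 fell, with 29 more than 2-fold higher and none more than 2-fold lower, and their median log2 ratio was 3.02. The list was written with earlier results of these data known, so its count is a description. Besides the genes above, the transcription factor genes Egr2 (log2 ratio 5.45), Batf3 (3.91), Myc (3.66), Klf4 (3.41) and Irf4 (3.02) rose. Chi3l3, the chitinase-like protein Ym1, rose by 4.30 on the log2 scale. The 2 falls were Ch25h, which makes 25-hydroxycholesterol (log2 ratio -0.92), and the chemokine Ccl12 (-0.86). The mannose receptor Mrc1, the surface protein used to mark alternatively activated macrophages, rose by 0.57, and the lectin Clec10a at 0.29 did not pass the test.

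Of 12 tested genes of arginine and polyamine metabolism 9 rose and none fell, with a median log2 ratio of 1.23. Slc7a2, the arginine importer CAT2, had 179 and 158 CPM in the IL-4 plus GW9662 libraries, against 1.22 and 1.75 CPM in the GW9662 libraries (log2 ratio 6.09, SE 0.151). The second importer Slc7a1 averaged 22.1 CPM with IL-4 plus GW9662 and 5.46 CPM with GW9662 alone (log2 ratio 1.84). Gatm, which makes the creatine precursor guanidinoacetate, averaged 252 CPM and 48.7 CPM in the same order (log2 ratio 2.35). Odc1, which carries ornithine on into polyamines, rose by 1.42, while Arg2, the mitochondrial arginase, at -0.44 did not pass the test. Nos2, the competing user of arginine in inflammatory macrophages, was below 1 CPM in both groups.

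The gene of the blocked receptor rose with GW9662 present. Pparg had 126 and 132 CPM in the IL-4 plus GW9662 libraries and 28.0 and 27.6 CPM in the GW9662 libraries, so the groups did not overlap (log2 ratio 2.17, SE 0.0874, adjusted p = 1.2e-06 by limma). Of 20 tested genes for PPARγ, its partner receptors and coregulators, 5 rose and 6 fell, which is close to the background shares. The coactivator gene Ppargc1b averaged 21.2 CPM with IL-4 plus GW9662 and 2.13 CPM with GW9662 alone (log2 ratio 2.83, SE 0.180). Vdr, the vitamin D receptor, averaged 12.3 CPM and 0.625 CPM in that order (log2 ratio 3.03), and Nr1h3, the receptor LXRα, 51.3 CPM and 22 CPM (log2 ratio 1.19). The partner genes Rxra and Rxrb fell by 0.41 and 0.49 on the log2 scale, and the relative Ppard fell by 0.90. The corepressors Ncor1 (-0.19) and Hdac3 (0.08) did not pass the test.

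Of 30 canonical PPARγ target genes 22 were tested and 8 stood below 1 CPM in both groups, among them Pdk4, Plin1 and Pck1. Of the 22, 12 rose, 6 fell and 4 did not pass the test, and 7 were more than 2-fold higher and 1 more than 2-fold lower. The median log2 ratio was 0.33. Fabp4, the fatty acid carrier often used as a readout of PPARγ, had 31.1 and 31.7 CPM with IL-4 plus GW9662, against 3.99 and 4.93 CPM with GW9662 alone (log2 ratio 2.57, SE 0.199, adjusted p = 2.9e-05). Olr1, a receptor for oxidised lipoprotein, had 5.10 and 5.03 CPM with IL-4 plus GW9662 and 0.181 and 0.257 CPM with GW9662 alone (log2 ratio 2.32). Cd36, the fatty acid translocase, had 894 and 1015 CPM with IL-4 plus GW9662 and 335 and 320 CPM with GW9662 alone (log2 ratio 1.54, SE 0.118). None of these genes overlapped between the groups, as was so for 77.8% of 10990 genes. Adipoq, the adipocyte hormone adiponectin, had 205 reads in the IL-4 plus GW9662 libraries and 1 read in the GW9662 libraries, a ratio of 197 with a counting interval of 35 to 7822 (exact, 95%). Lpl, the lipoprotein lipase, averaged 4285 CPM with IL-4 plus GW9662 and 1136 CPM with GW9662 alone (log2 ratio 1.91), and neither mean could be separated into libraries. The glycerol kinase gene Gyk rose by 1.19.

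The other targets moved little or fell. The rises of Slc27a1 (0.61) and Hadha (0.61) were followed by those of Mgll (0.35), Plin2 (0.32) and Acadl (0.26), of which the last 3 lost the call in several alternative settings. Angptl4, an inhibitor of lipoprotein lipase, fell to 10.6 and 11.9 CPM with IL-4 plus GW9662, against 24.9 and 22.3 CPM with GW9662 alone (log2 ratio -1.01, SE 0.148, adjusted p = 0.00088). Pltp (-0.99), Klf11 (-0.95), Acsl1 (-0.49), Scarb1 (-0.39) and Cpt1a (-0.26) also fell. Fabp5 had 50.9 and 86.6 CPM with IL-4 plus GW9662 and 65.4 and 61.1 CPM with GW9662 alone, so its libraries overlapped, and its log2 ratio of 0.12 turned to -0.29 with the counting kind as a term of the model. Acadvl (0.16), Ucp2 (0.32) and Tgm2 (0.35) did not pass the test.

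The test of the difference between the responses with and without GW9662 called none of the 22 target genes. Limma called 12 rises and 6 falls with GW9662, and 7 rises and 2 falls without it, where the SEs were larger. The log2 response with GW9662 minus the response without it ranged from -0.28 for Slc27a1 to 0.34 for Fabp5 over the 22 genes, with 10 above 0 and 12 below, and the smallest unadjusted p was 0.183. The 95% intervals of these differences from limma all held 0, with half-widths between 0.339 for Cpt1a and 1.37 for Fabp5 and a median of 0.658. Differences smaller than these half-widths could not be told from 0 here. The intervals are not adjusted for the number of genes tested, so larger differences could also go uncalled. Lpl, Pltp and Ucp2 were unseparated in every group, so their intervals rest on the spread of other genes. The values do not show that the responses were alike. For Pparg itself the log2 ratios were 2.17 with GW9662 and 1.82 without it, a difference by limma of 0.41 with an interval of -0.10 to 0.91.

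**Figure D2:**
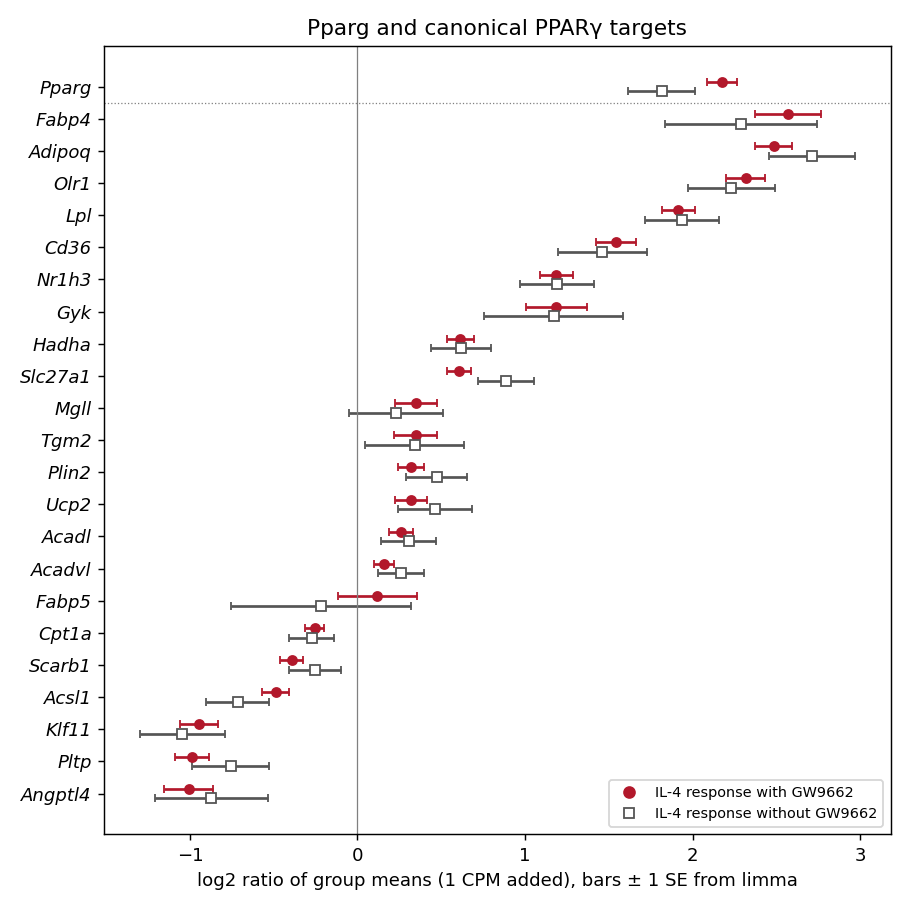
Log2 ratio of group means for Pparg and the 22 tested canonical PPARγ targets, with red circles for IL-4 plus GW9662 over GW9662 and open squares for IL-4 over vehicle. Bars are 1 SE from limma on 2 libraries per group. The targets run from 2.57 for Fabp4 to -1.01 for Angptl4 with GW9662, and the circles and squares of a gene lie close together with wider bars for the response without GW9662.

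All 13 tested genes of cholesterol efflux and of LXR, the sterol-sensing receptor, passed the test, 7 upward and 6 downward. The exporter gene Abcg1 had 927 and 902 CPM in the IL-4 plus GW9662 libraries and 216 and 199 CPM in the GW9662 libraries (log2 ratio 2.13, SE 0.0671). Its relative Abca1 fell by 1.11 on the log2 scale, and Apoe, the lipid-carrying apolipoprotein, averaged 14097 CPM with IL-4 plus GW9662 and 40942 CPM with GW9662 alone (log2 ratio -1.54). Scd2, a fatty acid desaturase, rose by 2.32. Of 22 tested genes of the sterol and fatty acid synthesis programme under SREBP 14 rose and 1 fell, with a median of 0.41, and Fdps (1.21), Sqle (1.04) and Mvd (1.02) rose most among those not sensitive to counting.

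Of 26 tested genes of fatty acid oxidation and the citrate cycle 19 rose and 3 fell, with a median of 0.57. Idh3a, a subunit of isocitrate dehydrogenase, had 39.7 and 42.7 CPM with IL-4 plus GW9662 and 15.5 and 10.3 CPM with GW9662 alone (log2 ratio 1.60, SE 0.196). Mdh2 rose by 1.13 and Etfa by 1.16. Hadhb, which is sensitive to counting, had 11.5 and 44.2 CPM with IL-4 plus GW9662, against 5.71 and 5.59 CPM with GW9662 alone, and lost its call without the shallower IL-4 plus GW9662 library (log2 difference 0.91). Of 21 glycolysis genes 10 rose and 7 fell. The phosphofructokinase isoforms moved apart, with Pfkp at 286 and 301 CPM with IL-4 plus GW9662 and 52.1 and 52.4 CPM with GW9662 alone (log2 ratio 2.47), while Pfkl fell by 1.11 and Pfkm by 0.82. Pfkfb3, which makes the activator of that enzyme, fell by 1.56 and the hexokinase Hk3 rose by 1.40. The glycolysis genes Pgk1, Gapdh, Eno1 and Pgam1 were sensitive to counting. Of these Pgk1 was called at a log2 ratio of 3.24, with 20.2 and 156 CPM with IL-4 plus GW9662 and 7.94 and 8.83 CPM with GW9662 alone, and it lost the call without the shallower IL-4 plus GW9662 library (log2 difference 1.18).

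Genes of cell fusion and of bone-resorbing cells formed a group with large rises. Of 12 tested, 7 rose, all more than 2-fold, and 3 fell, and the median log2 ratio was 2.28. Ocstamp, needed for the fusion of osteoclasts and of foreign body giant cells, had 106 and 115 CPM in the IL-4 plus GW9662 libraries, against a single read in both GW9662 libraries together. Its ratio of summed reads, 4771 to 1, was 4587 with a counting interval of 823 to 181200 (exact, 95%). Dcstamp, its partner in fusion, had 85.2 and 92.4 CPM with IL-4 plus GW9662 and 4.22 and 4.31 CPM with GW9662 alone (log2 ratio 4.09, SE 0.127). Atp6v0d2, a proton pump subunit, had 578 and 568 CPM with IL-4 plus GW9662 and 43.4 and 37.7 CPM with GW9662 alone (log2 ratio 3.79, SE 0.0993). The tetraspanin Cd9 (2.73), the integrin Itgb3 (2.65), the protease Ctsk (2.39) and the phosphatase Acp5 (2.16) also rose. The falls were in Mmp9 (-1.22), in Nfatc1, the master regulator of osteoclasts (-0.65), and in Tnfrsf11a, the RANK receptor (-0.26).

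Among genes that act on the surroundings, Fn1 and 2 clotting factor genes led. Of 30 tested genes of matrix remodelling and proteases 16 rose and 8 fell, with a median of 0.48. F10 had 271 and 303 CPM in the IL-4 plus GW9662 libraries and 5.99 and 5.34 CPM in the GW9662 libraries (log2 ratio 5.43, SE 0.0960). F7 averaged 102 CPM with IL-4 plus GW9662 and 2.28 CPM with GW9662 alone (log2 ratio 4.97). The elastase Mmp12 rose by 2.42, and Thbs1, the matrix protein thrombospondin, fell to 12.2 and 10.6 CPM with IL-4 plus GW9662, against 183 and 199 CPM with GW9662 alone (log2 ratio -3.95, SE 0.111). Lgals3, the lectin galectin-3, averaged 11656 CPM with IL-4 plus GW9662 and 3887 CPM with GW9662 alone (log2 ratio 1.58). Psap, the precursor of the saposins of lysosomal lipid breakdown, took 3.89% of all scaled reads with IL-4 plus GW9662 and 1.80% with GW9662 alone (log2 ratio 1.22), with both means too high to separate.

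Of 11 tested genes for CC chemokine ligands 7 rose and 3 fell, with a median of 1.43. Ccl24, which draws eosinophils, had 128 and 122 CPM with IL-4 plus GW9662 and 4.81 and 3.80 CPM with GW9662 alone (log2 ratio 4.57, SE 0.117). Ccl7 (2.22) and Ccl22 (2.12) rose, and Ccl3, a chemokine of inflammatory macrophages, fell by 2.11. Of 15 tested genes for chemokine receptors none rose and 10 fell, 8 of them more than 2-fold, and the median was -1.01. Cx3cr1, the fractalkine receptor, had 2.00 and 1.16 CPM with IL-4 plus GW9662, against 71.5 and 64 CPM with GW9662 alone (log2 ratio -4.74, SE 0.152). Cxcr3 (-2.74), Fpr2 (-2.52) and Fpr1 (-2.15) also fell, whereas Ccr1 (0.00) did not pass the test.

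Surface receptors for pathogens and for T cells were mixed. Of 21 tested C-type lectin and scavenger receptor genes 7 rose and 8 fell. The genes of Dectin-2 (Clec4n) and of its relatives Clec4d and Clec4e fell. Clec4n had 9.36 and 7.79 CPM with IL-4 plus GW9662 and 281 and 306 CPM with GW9662 alone (log2 ratio -4.94, SE 0.0907). Clec4d, which averaged 75.6 CPM with IL-4 plus GW9662 and 782 CPM with GW9662 alone, fell by 3.35, and Clec4e fell by 2.83. In contrast Clec7a, the β-glucan receptor Dectin-1, rose by 2.04. Of 12 tested genes of class II antigen presentation 5 rose and 2 fell. The peptide editors H2-DMa (1.71) and H2-DMb1 (1.44), the invariant chain Cd74 (1.06) and the class II regulator Ciita (1.02) rose, while the class II chains H2-Aa (0.07), H2-Ab1 (0.29) and H2-Eb1 (-0.15) did not pass the test. The T cell costimulators Cd86 (-1.61) and Cd80 (-1.50) fell.

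Antiviral and inflammatory genes fell. Of 39 tested interferon-stimulated genes 34 fell, 27 of them more than 2-fold, and 1, Gbp2 (0.33), rose, and the median log2 ratio was -1.43. Ifit3 had 4.70 and 6.92 CPM with IL-4 plus GW9662 and 113 and 111 CPM with GW9662 alone (log2 ratio -4.06, SE 0.153). Ifit2 (-3.31) and Ifit1 (-3.16), members of the same family that binds viral RNA, fell with it, as did the chemokine Cxcl10 (-3.89), which averaged 0.482 CPM with IL-4 plus GW9662 and 21 CPM with GW9662 alone. Of 19 tested inflammatory cytokines and NF-κB regulators 13 fell and 3 rose. Nfkbiz, an NF-κB cofactor, had 2.57 and 2.28 CPM with IL-4 plus GW9662 and 52.2 and 43.7 CPM with GW9662 alone (log2 ratio -3.84, SE 0.118). Il1b (-3.06), Nlrp3, the inflammasome sensor (-2.38), and Il10 (-1.58) fell. The acute phase gene Saa3 rose, with 65.0 and 74.8 CPM in the IL-4 plus GW9662 libraries and 24.0 and 28.1 CPM in the GW9662 libraries (log2 ratio 1.39, SE 0.361), and lost its call without group weights, without the deeper GW9662 library and without the shallower IL-4 plus GW9662 library. Of 20 Toll-like receptors and co-receptors 11 fell and 4 rose: Tlr2 (-3.06), Tlr5 (-2.66) and Tlr9 (-2.02) fell, while Tlr4 rose by 0.54.

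In 38 of the 39 interferon-stimulated genes the log2 ratio was higher with GW9662 than without it, beside 5032 of 10292 genes not sensitive to counting. No difference passed the test, and 3 of the 39, Oas1a, Oas1g and Ifi205, were sensitive to counting. The median difference of the log2 ratios was 0.42 for these 39 genes and -0.01 for 10292 genes not sensitive to counting. At an unadjusted p under 0.05 for the difference there were 4, Ifit1, Ifit3, Isg15 and Iigp1, beside 13 of all 11232 genes. The lowest adjusted p over the list was 1.00 by limma. Summed over the 39 genes, the level was 1733 and 1913 CPM in the IL-4 plus GW9662 libraries, against 4239 and 4355 CPM in the GW9662 libraries. Without GW9662 it was 1727 and 1708 CPM in the IL-4 libraries, against 5615 and 4850 CPM in the vehicle libraries. The sums after IL-4 lay close together, and the sums of the vehicle libraries stood above those of the GW9662 libraries. By their means, 38 of the 39 genes were lower in GW9662 than in vehicle, a count without a share over all genes beside it. It uses the same GW9662 and vehicle means as the count of higher log2 ratios above. The 2 counts are therefore not separate results. The genes of this list respond to shared inputs and are not independent of each other.

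Genes that mark the macrophage identity mostly fell. Of 22 tested, 15 fell, 12 of them more than 2-fold, and 3 rose, with a median log2 ratio of -1.11. Emr4, a receptor of the F4/80 family, had 0.444 and 0.145 CPM with IL-4 plus GW9662 and 42.9 and 38.3 CPM with GW9662 alone (log2 ratio -5.01, SE 0.135). Cd14, the lipopolysaccharide co-receptor, had 58.9 and 56.9 CPM with IL-4 plus GW9662 and 556 and 555 CPM with GW9662 alone (log2 ratio -3.24, SE 0.0669). Maf, a transcription factor of resident macrophages, fell by 2.76. The receptor of the differentiating growth factor, Csf1r, averaged 5940 CPM with IL-4 plus GW9662 and 8360 CPM with GW9662 alone (log2 ratio -0.49, adjusted p = 0.035 by limma). None of its means could be separated, so this p-value rested on the spread of other genes. The adaptor Tyrobp at 0.07 did not pass the test. For Lyz1 no direction can be given, since its 43.1 and 641 CPM with IL-4 plus GW9662 lay on either side of the 140 and 134 CPM with GW9662 alone. In bulk samples fewer cells of a kind and less RNA per cell cannot be told apart.

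Other genes among the 12 strongest falls were of varied function. Gpr162, an orphan receptor gene, had the lowest log2 ratio of all, with 2.62 and 2.13 CPM in the IL-4 plus GW9662 libraries, against 112 and 112 CPM in the GW9662 libraries (log2 ratio -5.07, SE 0.103). Slc40a1, the iron exporter ferroportin, had 17.9 and 12.1 CPM with IL-4 plus GW9662 and 269 and 306 CPM with GW9662 alone (log2 ratio -4.18, SE 0.162). Hpgd, which inactivates prostaglandins, had 8.34 and 3.63 CPM with IL-4 plus GW9662 and 88.3 and 139 CPM with GW9662 alone (log2 ratio -4.03, SE 0.350). Its libraries spread more within a group than those of the other genes of this set, but did not overlap, as in 77.8% of 10990 genes. Ms4a6b (-4.06), the inhibitory lectin Siglece (-4.04), the IGF-binding protein Igfbp4 (-3.95) and Cd4 (-3.93) completed the set with genes named above.

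Markers of other cell types were read from 7 further lists. The summed level of 11 tested neutrophil markers was 279 and 380 CPM in the IL-4 plus GW9662 libraries, against 756 and 601 CPM in the GW9662 libraries, and 9 of the 11 fell and none rose. The part of this shift in the results above was not tested. Of 14 lymphocyte markers 2 were tested, Cd4 and Cd79b, and 3 were at 0 in both groups. The list sum was 3.90 and 5.81 CPM with IL-4 plus GW9662, against 47.6 and 39.4 CPM with GW9662 alone, nearly all of it Cd4, which some macrophages also express. Of 12 fibroblast markers 3 were tested and none passed by limma (none also at an unadjusted p under 0.05), with sums of 3.64 and 8.52 CPM with IL-4 plus GW9662 and 4.49 and 5.59 CPM with GW9662 alone. Of 12 mast cell, basophil and eosinophil markers 5 were tested, of which 1 rose and 3 fell. Of 8 tested dendritic cell markers Itgax, Batf3 and Zbtb46 rose and Tcf4 and Cd209a fell, and Flt3, Siglech and Ccr7 did not pass the test. Erythroid and endothelial markers gave 1 rise, Pecam1, and 1 fall, Kdr, among 2 tested, and the adipocyte list gave a rise of Adipoq and a fall of Lipe among 3 tested.

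**Figure D3:**
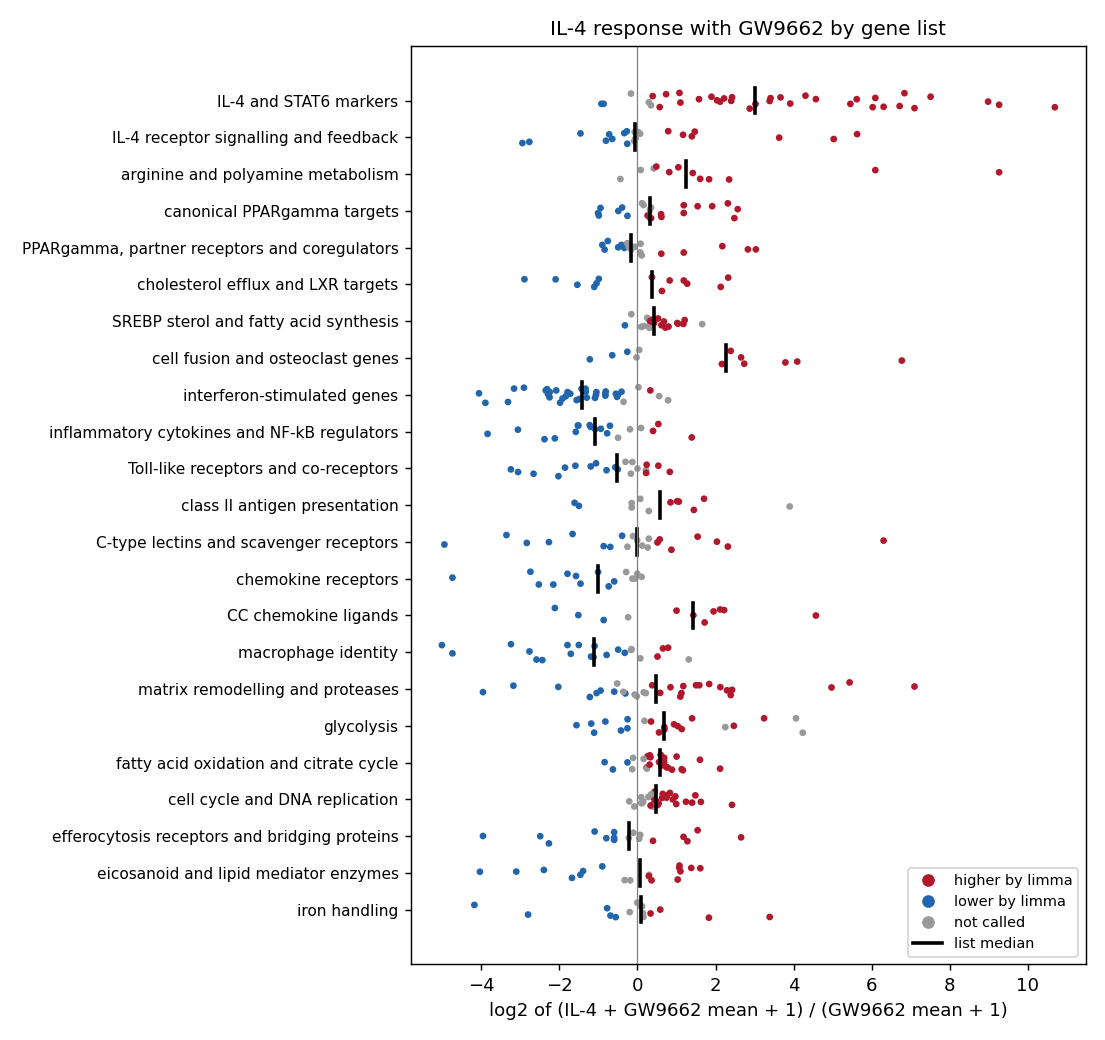
Log2 ratio of IL-4 plus GW9662 over GW9662 for every tested member of the 23 gene lists, with red for rises and blue for falls called by limma, grey for genes not called, and a black bar at each list's median. IL-4 and STAT6 markers have the highest median (3.02), interferon-stimulated genes the lowest (-1.43), and grey dots far to the right are genes sensitive to counting.

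The response with GW9662 was then set beside the response without it, from libraries that the responses do not share. Across 10292 genes not sensitive to counting and tested in both, the log2 ratios had a Pearson r of 0.973 and a Spearman rho of 0.929, given as a description, since genes are not independent. Without GW9662, 732 of 11140 genes (6.57%) were more than 2-fold higher and 731 (6.56%) more than 2-fold lower. Of 1333 genes beyond 2-fold with GW9662, 1331 had the same sign without it. Upward, 586 genes were beyond 2-fold in both, which is 88.8% of the 660 with GW9662 and 84.7% of the 692 without it. Downward, 584 genes were, which is 86.8% of 673 with GW9662 and 85.4% of 684 without it. Among 342 genes beyond 4-fold with GW9662, the median of the log2 ratio without GW9662 divided by that with it was 1.01. The log2 ratios lay within 0.5 of each other for 98.7% of genes.

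The test of the difference between the responses called 0 of 11232 genes (0%) by limma, with 13 at an unadjusted p under 0.05. Limma-voom on the recovered reads also called none, with 27 at an unadjusted p under 0.05. Both counts lie far below the share of 0.05 that a calibrated test gives when no gene differs. The test was thus conservative, and its 0 calls do not show that the responses were alike. The median SE of a difference was 0.247, set by the IL-4 libraries without GW9662, which agreed less well: the median SE was 0.0992 for the response with GW9662 and 0.226 for the one without it. Limma called 2924 rises (26.3%) and 2792 falls (25.1%) with GW9662, and 1089 rises (9.78%) and 934 falls (8.38%) without it, and these counts rest on the unequal SEs. With the counting kind of each library as a term, 5 genes (0.0451%) and 1 gene (0.00902%) of 11088 passed in the positive and negative direction, and 5 of these 6 genes are given in the closing section. Of the genes with the widest gap between the ratios, Lyz1 (1.31 with GW9662, -1.97 without), Saa3 (1.39 and 0.06) and the long noncoding RNA Malat1 (-0.26 and -1.29) had libraries of the same group that stood apart. At the other end lay Retnla (10.69 and 11.53), Urb1 (-0.20 and 0.36), 2310039H08Rik (0.59 and 1.12) and the aldolase gene Aldoc (-1.18 and -0.70), and none of these 7 genes passed the test of the difference. The mean of Retnla was 22256 CPM in IL-4 plus GW9662 over 10.4 and 14.5 CPM in the GW9662 libraries, and 18412 CPM in IL-4 over a mean of 5.22 CPM in vehicle.

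**Figure D4:**
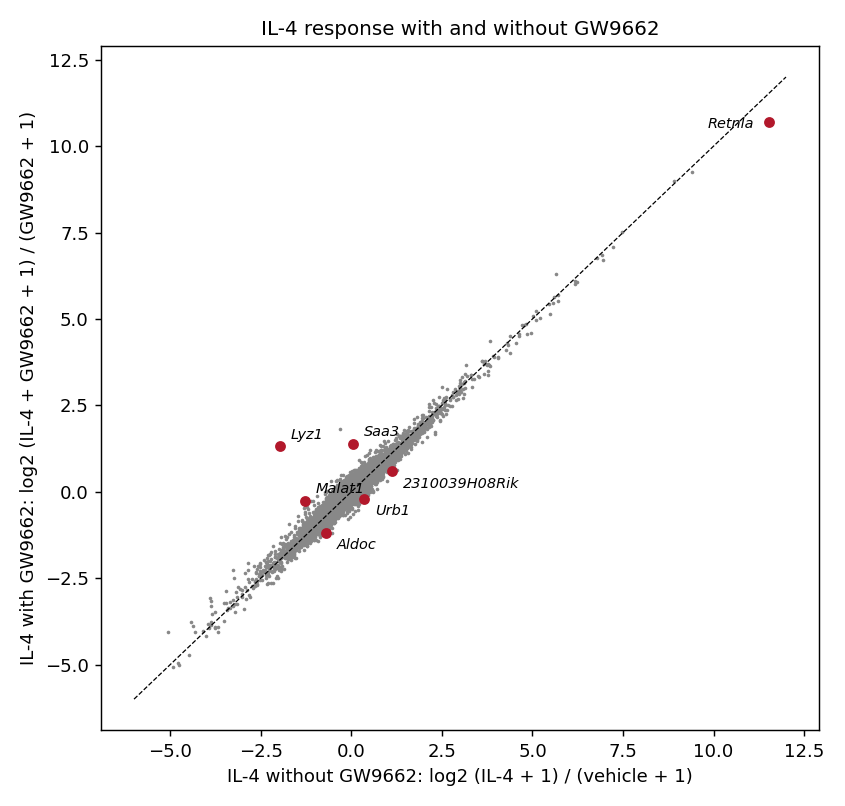
Each dot is 1 of 10292 genes not sensitive to counting, with the log2 ratio for IL-4 over vehicle on the horizontal axis and for IL-4 plus GW9662 over GW9662 on the vertical axis. The dashed line marks equal responses, and red dots are 7 named genes with wide gaps. Nearly all genes follow the line, and Lyz1 and Saa3 stand above it. Lyz1 read far higher in the high-kind library of both groups given IL-4, but not in that of the vehicle group, so the counting rule did not mark it.

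A first exposure of wild-type cells to IL-4 for 3 h, in the other experiment, gives the early side of the response for the same genes. Those columns are means and carry no test here, and they differ from the 24 h groups in time, in experiment and in the absence of GW9662. They were not separated, so the counting kinds of their libraries are not known. Sensitivity to counting was judged without them. Beyond 2-fold, 522 of 10854 genes (4.81%) were higher and 399 (3.68%) lower at 3 h. Of 10120 genes not sensitive to counting and measured at both times, 199 were higher at both, which is 34.2% of the 582 at 24 h and 39.6% of the 502 at 3 h. Lower at both were 172, which is 26.2% of the 656 at 24 h and 44.1% of the 390 at 3 h. Socs1 (log2 ratio 7.13 at 3 h, 5.03 at 24 h), Cish (6.65 and 5.63) and Ccl7 (5.72 and 2.22) had the higher ratio at 3 h. Retnla (4.01 at 3 h, 10.69 at 24 h), Arg1 (6.26 and 9.26) and Fn1 (1.55 and 7.10) had the higher ratio at 24 h. The fusion genes Atp6v0d2 (0.00 at 3 h, 3.79 at 24 h) and Dcstamp (-0.36 and 4.09), Itgax (0.44 and 6.02), Pparg (0.10 and 2.17) and the target Cd36 (-0.06 and 1.54) were near 0 at 3 h and high at 24 h.

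In all, 18 genes lay beyond 2-fold in opposite directions at the 2 times, and these were chosen by that pattern. Il4ra averaged 1030 CPM after 3 h of IL-4 and 299 CPM without it (log2 ratio 1.78), whereas at 24 h it averaged 180 CPM with IL-4 plus GW9662 and 497 CPM with GW9662 alone (log2 ratio -1.46). Irf7, the regulator of interferon genes, had log2 ratios of 1.93 at 3 h and -1.92 at 24 h, from unlike reference levels. It averaged 403 CPM after 3 h of IL-4 and 105 CPM without it. At 24 h it averaged 167 CPM with IL-4 plus GW9662 and 634 CPM with GW9662 alone. The interferon-induced GTPases Ifi47 (1.63 and -1.06) and Gbp5 (1.5 and -1.72) had the same pattern. Without IL-4, Ifi47 averaged 45.0 CPM in the 3 h experiment and 108 CPM with GW9662 at 24 h, and Gbp5 5.36 and 17.6 CPM. Il10 had log2 ratios of 1.26 and -1.58, and Id3, an inhibitor of helix-loop-helix factors, 1.28 and -2.18. The reference level was higher at 24 h for Il10 (8.26 and 12.6 CPM) and lower for Id3 (22.5 and 15.6 CPM). Whether the changes of sign come from time or from the unlike references was not tested. Of the 18 genes, 15 were higher at 3 h and lower at 24 h. The reverse held for 3, the cytokine receptor Il7r (-1.37 at 3 h, 1.21 at 24 h), Dagla, which makes an endocannabinoid (log2 ratio 1.45 at 24 h), and the nuclease Dna2, with a log2 ratio of -1.09 at 3 h and means of 12.9 CPM with IL-4 plus GW9662 and 5.68 CPM with GW9662 alone at 24 h.

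**Figure D5:**
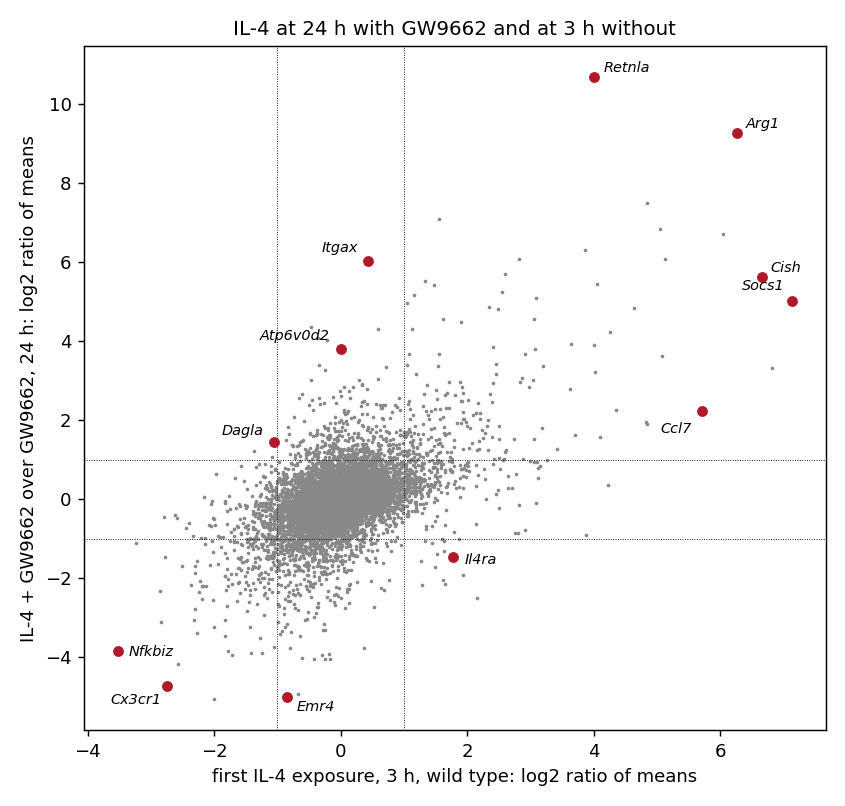
Log2 ratio of means for a first 3 h exposure to IL-4 in wild-type cells (horizontal axis) against IL-4 plus GW9662 over GW9662 at 24 h (vertical axis), with dotted lines at 2-fold. Each dot is 1 gene not sensitive to counting, judged without the 3 h libraries. Socs1 and Cish lie far to the right, Itgax and Atp6v0d2 are near 0 at 3 h and high at 24 h, and Il4ra lies in the lower right corner.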

How the data were processed

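RNA was sequenced from the macrophages described above. The tools named are TopHat2 2.0.7 and Cufflinks 2.0.2, on build mm10, per the submitters' processing notes, and strand use in counting is not given in the sources used here, so overlapping and antisense genes cannot be told apart. The authors deposited, for each group, the mean of 2 libraries as a normalized signal per gene, scaled to library size (CPM) and not divided by length. Each mean was separated into whole reads of a deeper and a shallower library: 57704 of 58116 values above 0 (99.3%) had 1 solution, and 376, all at 1003.6 CPM or more, stayed unseparated and entered as 1 observation of weight 2. A gene unseparated in every group had no spread of its own, so its limma SE and p-value rested on the spread of other genes. This holds for Csf1r, Lpl, Pltp, Ucp2, Psap, Apoe and Lgals3, among others. The 8 libraries held 11136029 to 19526834 reads in separated genes. Intervals cover counting error only.

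The log2 ratio is that of group means with 1 CPM added. Tests used limma 3.58.1 in R 4.3.3 on log2(CPM + 1) of all 8 libraries, with 1 coefficient and 1 variance weight per group, and Benjamini-Hochberg adjustment over all genes tested. The scale understates changes of low genes, and the SE belongs to limma's difference of mean logs. Genes were called sensitive to counting when high-kind libraries exceeded low-kind ones by more than 1.5-fold in all 3 mixed groups, or when at least 50% of 60 sampled 50-base words occurred in other genes' transcripts. A gene unseparated in any mixed group was judged by the words alone. Named genes were the 12 highest and 12 lowest log2 ratios, up to 4 genes per list and the widest gaps between the responses; further names were chosen after their values were seen. The members and lists were chosen with earlier results of these data known. Procedures were tested on simulated data. The alternatives were other pseudocounts, filters, scalings, weights and sample sets, limma-voom on recovered reads, and leaving out each library. The counting kind as a term was tried for the gene lists and named genes only after seeing the data. Results for a few genes are not reported here.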

Additional observations from a re-analysis of the deposited data

Results flagged for a closer look

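With the counting kind of each library as a term in limma, the IL-4 response with GW9662 minus the response without it passed the test for 6 of 11088 genes, of which 5 are described here. No explanation was tested, and without that term none of the 6 passed. The log2 difference was 2.25 for Lyz1, which had 43.1 and 641 CPM in the IL-4 plus GW9662 libraries and 140 and 134 CPM in the GW9662 libraries, against 678 and 45.8 CPM in the IL-4 libraries and 1547 and 1300 CPM in the vehicle libraries. The 2 libraries stood far apart within both groups given IL-4, and in each the higher value was that of the high-kind library. In the vehicle group the high-kind library held the 1300 CPM. Lyz1 therefore missed the rule for genes sensitive to counting, which asks for an excess in all 3 mixed groups.

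The log2 difference was 1.42 for Saa3, with 76.1 and 84.9 CPM in the IL-4 libraries and 118 and 36.8 CPM in the vehicle libraries, so that its vehicle libraries lay on either side of the IL-4 ones. It was 0.79 for Malat1 (adjusted p = 0.035 by limma), which had 102 and 70.1 CPM in the IL-4 plus GW9662 libraries and 86.3 and 120 CPM in the GW9662 libraries. For H2-Q10, a class I gene sensitive to counting, it was 1.86, with 0.222 and 73.6 CPM in the IL-4 plus GW9662 libraries and 0.0907 and 0.154 CPM in the GW9662 libraries. For the integrin Itgad, also sensitive to counting, it was -1.37, with 0.577 and 91.7 CPM in the IL-4 plus GW9662 libraries and 0.453 and 0.359 CPM in the GW9662 libraries.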

How the results depend on the processing

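No paired analysis was possible because the separated libraries carry no replicate numbers. Of 1939 values of 123 named genes under 16 alternatives, 1877 kept direction and call, 51 lost the call, 8 gained it and 3 reversed: Lyz1 at -1.64 without the shallower IL-4 plus GW9662 library, and Lyz1 at -0.74 and Fabp5 at -0.29 with the counting kind as a term. Lyz1 was called at 2.22 without the deeper IL-4 plus GW9662 library, so its direction rests on which library is kept. Without group weights limma called 1654 rises and 1648 falls. With the counting kind as a term, the difference between responses was called for 5 genes upward and 1 downward, and the cause was not tested. Leaving out 1 library gave 656 to 1139 genes more than 2-fold higher and 692 to 748 lower, 2185 to 2876 rises and 2092 to 2697 falls by limma, and 0 differences between responses. The members of pathway lists called were 156 to 184 higher and 142 to 153 lower, beside 182 and 154 with all libraries. The count of 656 came without the shallower IL-4 plus GW9662 library, which leaves only low-kind libraries. Unseparated values have no spread between libraries, and low-count genes are limited by their reads.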

Other observations

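Enzymes of lipid mediators divided with IL-4 in the presence of GW9662: of 18 tested, 8 rose and 7 fell by limma, beside 26.3% and 25.1% of all genes. Alox5, the 5-lipoxygenase that starts leukotriene synthesis, had 5.23 and 3.53 CPM in the IL-4 plus GW9662 libraries and 44.2 and 46.2 CPM in the GW9662 libraries (log2 ratio -3.10, SE 0.149). Its helper Alox5ap (-0.90) and the leukotriene C4 synthase Ltc4s (-1.46) fell too, as did the prostaglandin D synthase Hpgds (-2.40). The cyclooxygenase Ptgs1 (1.10), the thromboxane synthase Tbxas1 (1.03) and the phospholipase Pla2g4a (1.07) rose. Alox15, a lipoxygenase known to respond to IL-4, averaged 1.42 CPM with IL-4 plus GW9662 and 0.148 CPM with GW9662 alone.

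Of 15 tested iron genes 4 rose and 5 fell, close to the shares of all genes, with a median log2 ratio of 0.08. Tfrc, the transferrin receptor, had 464 and 467 CPM in the IL-4 plus GW9662 libraries and 46.0 and 41.2 CPM in the GW9662 libraries (log2 ratio 3.39, SE 0.105), and the iron reductase Steap3 rose by 1.83. The exporter Slc40a1 (-4.18) and the ferroxidase Cp (-2.80) fell. Among 17 efferocytosis genes 5 rose and 8 fell: the receptors Mertk (-1.10) and Axl (-0.80) fell with their bridging protein Gas6 (-2.49), whose GW9662 mean of 1251 CPM could not be separated, while the other bridging protein Pros1 rose by 1.18. Of 31 cell cycle genes 21 rose and none fell, led among those not sensitive to counting by Mcm5 (1.62), Ccnd1 (1.48) and Ccne1 (1.40), and the rises were 12 without group weights. Of 12 reference genes often used for scaling, 6 rose and Hprt (-0.71) fell, with 4 of the 12 sensitive to counting.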
